A study of Mus musculus with 10 samples.

Results

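The open chromatin of the mouse cochlear duct at E13.5 was compared between wildtype and SoxC double knockout tissue as a graded property, at regions that were open in both genotypes. A region entered when every one of the 5 ATAC-seq peak lists held a peak there, on chromosomes 1 to 19. Of 342258 regions with a peak in at least 1 library, 71716 (20.95%) met this rule, and the other 270542 had a peak in 1 to 4 libraries. Each region was then followed by how high its peak ranked within each library. No measured difference between genotypes was used to choose the regions.

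ATAC-seq inserts adapters into accessible DNA with the Tn5 transposase, so that peaks mark open promoters and enhancers. Dispase and collagenase were used to free the duct epithelium, which was lysed whole and unsorted. The samples' titles call the tissue whole organ. There were 3 wildtype libraries and 2 SoxC double knockout libraries, and both genotypes were of the same embryonic age. The labels of the ATAC libraries give neither the deleted genes nor the Cre driver. The series describes the knockout as conditional, and its single-cell knockout library came from Pax2cre SoxCfl/fl embryos. SoxC factors are Sox4, Sox11 and Sox12, and a SoxC double knockout usually means Sox4 and Sox11 without Sox12. Pax2-Cre recombines in the otic placode and in parts of the hindbrain and kidney, so tissue without recombination can remain in an unsorted duct. The labels do not say how many animals went into a library or whether replicates came from separate litters, so all p-values measure the spread between these libraries alone.

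SoxC proteins bind DNA through an HMG box and act in progenitors of many tissues at the point where proliferation gives way to differentiation. At this age the prosensory cells of the cochlear duct, the common precursors of hair cells and supporting cells, leave the cell cycle in a wave from the apex. They lie in the floor of the duct, between a medial domain that will make the tectorial membrane and a lateral domain, with the roof above them. Hair cells differentiate only afterwards, under the factor Atoh1.

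A peak's scaled rank was its position in its own library's list, from the strongest peak at 0% to the weakest at 100%, with strength taken as the −log10 p of the deposited list. Differences were tested on the log2 odds of this rank, called rank log-odds here. A rise of 1 doubles the odds of lying nearer the strong end. A region gained rank in the knockout where the difference (knockout minus wildtype) was positive and lost rank where it was negative. The call was made at an adjusted p under 0.05 (limma with Benjamini-Hochberg adjustment over all 71716 regions).

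Promoters that stood in gained and lost regions are shown first, because they are the regions whose sequence the reference tables give. They are the 3 gained and the 3 lost list-gene promoters with the smallest p, from 250 bases before to 50 bases after the transcription start, read 5′ to 3′ on the gene's strand (RefSeq, GRCm38.p6). Capitals mark the letters CCAAT or ATTGG, the core of the CCAAT box and its reverse, and CCGGAA or TTCCGG, a core bound by ETS factors and its reverse.

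Gained, Top2a, minus strand, chr11:99024140-99024439: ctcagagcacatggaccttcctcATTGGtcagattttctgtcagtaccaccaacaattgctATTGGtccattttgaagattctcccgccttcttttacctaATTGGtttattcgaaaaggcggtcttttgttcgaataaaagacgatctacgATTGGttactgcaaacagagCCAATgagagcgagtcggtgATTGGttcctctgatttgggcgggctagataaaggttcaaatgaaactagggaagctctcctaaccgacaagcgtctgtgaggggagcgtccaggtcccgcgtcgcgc
Gained, Rps18, minus strand, chr17:33955616-33955915: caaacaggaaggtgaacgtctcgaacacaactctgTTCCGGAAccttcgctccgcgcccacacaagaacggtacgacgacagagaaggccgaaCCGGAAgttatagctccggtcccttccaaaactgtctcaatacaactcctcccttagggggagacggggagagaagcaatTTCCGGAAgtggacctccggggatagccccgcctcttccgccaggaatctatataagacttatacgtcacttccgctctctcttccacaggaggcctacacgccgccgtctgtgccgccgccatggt
Gained, Nf2, minus strand, chr11:4849495-4849794: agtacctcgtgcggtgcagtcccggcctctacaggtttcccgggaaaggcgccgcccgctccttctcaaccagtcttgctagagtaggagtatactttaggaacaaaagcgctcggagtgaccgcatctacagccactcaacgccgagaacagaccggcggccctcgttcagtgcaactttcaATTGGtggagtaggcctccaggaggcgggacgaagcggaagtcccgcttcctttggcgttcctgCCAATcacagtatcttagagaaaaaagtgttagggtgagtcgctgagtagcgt
Lost, Isl1, minus strand, chr13:116309639-116309938: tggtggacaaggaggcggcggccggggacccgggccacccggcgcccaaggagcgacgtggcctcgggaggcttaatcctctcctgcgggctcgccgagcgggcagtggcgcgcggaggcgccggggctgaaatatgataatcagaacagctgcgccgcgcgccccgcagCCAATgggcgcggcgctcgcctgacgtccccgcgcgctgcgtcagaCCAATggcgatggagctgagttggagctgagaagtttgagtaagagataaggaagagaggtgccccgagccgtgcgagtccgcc
Lost, Pou4f1, minus strand, chr14:104467950-104468249: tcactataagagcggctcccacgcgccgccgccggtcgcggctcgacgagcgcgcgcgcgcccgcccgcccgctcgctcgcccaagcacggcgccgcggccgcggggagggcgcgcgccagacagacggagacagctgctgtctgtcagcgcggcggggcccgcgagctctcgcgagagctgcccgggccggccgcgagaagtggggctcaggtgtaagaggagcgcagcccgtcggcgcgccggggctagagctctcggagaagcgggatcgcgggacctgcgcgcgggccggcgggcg
Lost, Myo6, plus strand, chr9:80164784-80165083: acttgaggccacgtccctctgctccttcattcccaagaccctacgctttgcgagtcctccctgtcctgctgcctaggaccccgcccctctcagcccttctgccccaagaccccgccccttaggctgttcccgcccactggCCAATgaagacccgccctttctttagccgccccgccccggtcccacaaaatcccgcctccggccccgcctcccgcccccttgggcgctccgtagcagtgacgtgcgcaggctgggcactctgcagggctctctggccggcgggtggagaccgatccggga

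The promoter of Top2a, the DNA topoisomerase of dividing cells, held 6 CCAAT matches and no CCGGAA match, and its G+C content was 47.7%. Its region ranked at 8.81%, 9.82% and 3.57% in wildtype 1 to 3 and at 0.0237% and 0.477% in knockout 1 and 2. Both knockout libraries thus placed it far nearer the strong end, by 6.10 ± 0.94 rank log-odds (SE, adjusted p 0.0023 in limma). The promoter of Rps18, a protein of the small ribosomal subunit, held 5 matches to CCGGAA counted on both strands. Its region ranked at 3.98%, 9.39% and 9.57% in wildtype and at 1.13% and 0.900% in the knockout, a gain of 2.91 ± 0.47. Nf2, which encodes the Hippo pathway regulator merlin, held 2 CCAAT matches and gained 3.13 ± 0.58, from 1.44%, 1.24% and 0.993% to 0.171% and 0.114%. Its difference was -0.66, and not called, when peaks were ranked by fold enrichment.

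Among the lost promoters, Isl1, a LIM homeodomain factor of prosensory cells and neurons, had a G+C content of 69.0% and 2 CCAAT matches. Its region fell from 1.10%, 0.947% and 0.520% in wildtype to 11.3% and 12.7% in the knockout, a difference of -4.05 ± 0.44 (SE, limma adjusted p 0.00065). The groups did not overlap, yet the −log10 p of the Isl1 peak was 257, 163 and 143 in wildtype and 260 and 133 in the knockout, which overlapped. The loss was thus one of position in the list, while peak significance did not separate the genotypes. Pou4f1, a POU factor of sensory neurons, held neither motif and went from 2.07%, 2.65% and 1.45% to 9.06% and 9.19%, a loss of 2.30 ± 0.40. Its −log10 p was 203, 105 and 96.5 in wildtype and 310 and 178 in the knockout, which overlapped. Myo6, an unconventional myosin of the hair bundle, held 1 CCAAT match and went from 0.529%, 0.612% and 0.418% to 3.07% and 2.87%, a loss of 2.57 ± 0.46. Its −log10 p was 313, 187 and 153 in wildtype and 558 and 391 in the knockout. Myo6 thus fell in rank while its peak significance was higher in both knockout libraries than in every wildtype library. In all 6 promoters the groups did not overlap, but they were picked from called regions, of which 14694 of 14695 showed no overlap.

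Over all shared regions, 9641 gained rank in the knockout (13.4%) and 5054 lost it (7.05%), together 14695 (20.5%). The median difference was 2.01 in the gained and -2.15 in the lost regions. By the plainer description that all knockout values lay beyond all wildtype values, 25437 regions gained (35.5%) and 13785 lost (19.2%). Of the 14695 called regions 14694 showed no overlap between the groups. Without knockout 1 the test called 1009 gained and 1608 lost regions, without knockout 2 it called 3504 and 2203, and without wildtype 2 it called 5779 and 3434.

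The balance between gains and losses depended on the scaling. The knockout lists were longer, and the median of all shared regions moved up by 0.38 on the log2 scale. When regions were ranked among the shared regions alone, which takes most of that shift away (median 0.09), 5732 regions gained (7.99%) and 7492 lost (10.4%). Gains thus made up 65.6% of the calls with full lists and 43.3% with re-ranked regions. No region was called in opposite directions by the 2 scalings, and 5727 gained and 5054 lost regions were called by both. Every lost region of the main scaling was therefore also lost after re-ranking.

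**Figure D1:**
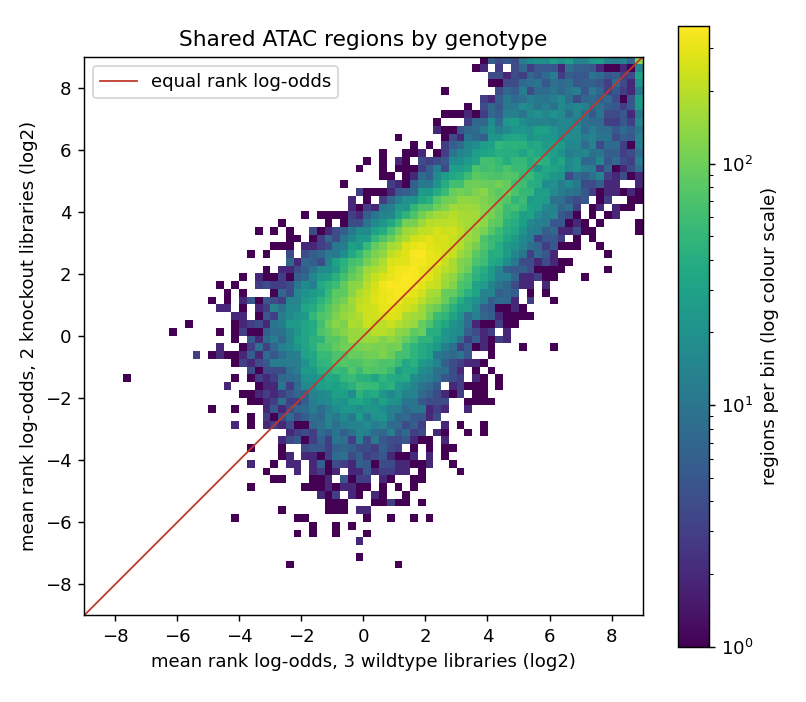
Mean rank log-odds (log2) of the 71716 shared regions in the 3 wildtype libraries (horizontal) and the 2 knockout libraries (vertical), with the number of regions in a bin as colour on a log scale and values beyond 9 drawn at the edge. The cloud lies along the line of equal values and slightly above it, with a median difference of 0.38.

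Regions that lost rank began as strong, wide wildtype peaks. Their median scaled rank was 10.7%, 9.67% and 7.61% in wildtype 1 to 3, and 28.9% and 30.2% in the knockout. Gained regions began near the middle of the shared regions, at 18.1%, 24.6% and 22.8% in wildtype, and reached 6.22% and 7.72%. Because the wildtype ranks are part of the call, some of this contrast in starting rank is built into the classes. In wildtype 1 the peaks of lost regions had a median width of 577 bp, against 418 bp in gained regions and 429 bp in all shared regions. The median distance to the closest gene end was 39906 bp for lost regions, 7470 bp for gained regions and 19560 bp for all shared regions. Of the lost regions 18.8% lay at gene ends, 36.1% inside genes and 45.1% between genes, against 19.7%, 40.9% and 39.4% of all shared regions.

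The libraries differed in more than genotype. The peak lists carried no read numbers, so sequencing depth is unknown. Wildtype lists held 166874 to 196536 peaks and the knockout lists 266873 and 299829. The median −log10 p of a peak was 8.42, 6.60 and 4.93 in wildtype 1 to 3 and 23.8 and 14.0 in knockout 1 and 2, so that peak significance and genotype cannot be told apart. In 80.8% of shared regions both knockout libraries exceeded every wildtype library in −log10 p. This held for all 9641 gained regions and still for 1405 of the lost ones, while 709 lost regions had a lower −log10 p in both knockout libraries than in all wildtype libraries. With the median significance of a library as a covariate, chosen after seeing the data, limma called 0 regions, with 2070 gained and 1807 lost at an unadjusted p under 0.05. The promoters of 8 of 9 epithelial marker genes held a peak in every wildtype library and 9 of 9 in both knockout libraries. Markers of blood, endothelium and macrophages held promoter peaks in all wildtype libraries for 3 of 8 genes and in both knockout libraries for 4 of 8, and those of mesenchyme for 4 of 9 and 7 of 9.

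Libraries of one genotype resembled each other more than libraries of different genotypes did. Spearman's rho over the shared regions was 0.857, 0.813 and 0.832 among the wildtype libraries and 0.950 between the knockout libraries. Between genotypes it ran from 0.633 (wildtype 3 with knockout 1) to 0.779 (wildtype 1 with knockout 2). The mean within genotypes was 0.863 ± 0.061 (SD over 4 pairs) and between genotypes 0.702 ± 0.059 (SD over 6 pairs), a difference of 0.161. In an exact one-sided permutation over the 10 splits of 5 libraries into 3 and 2, p was 0.1, the smallest this design allows. Wildtype 1, which had the highest peak significance of its group, was closer to both knockout libraries than wildtype 2 and 3 were.

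The direction of change at single regions recurred in separate libraries. When knockout 1 minus wildtype 1 was set against knockout 2 minus the mean of wildtype 2 and 3, which share no library, Pearson's r across regions was 0.615 and Spearman's rho 0.650. In 74.98% of regions both differences lay on the same side of their medians. All 6 ways of forming such sets gave r from 0.584 to 0.639. These are descriptions across regions, which are not independent replicates, and the sets share the gap in peak significance between genotypes. For scale, wildtype 1 minus wildtype 3, which holds no genotype difference, had r of 0.192 with the knockout mean minus wildtype 2, and wildtype 2 minus wildtype 3 had r of 0.0026 with the knockout mean minus wildtype 1. The median SD of a region was 0.59 rank log-odds over the 3 wildtype libraries and 0.30 over the 2 knockout libraries. The median absolute difference was 0.65, 0.71 and 0.71 between pairs of wildtype libraries and 0.42 between the knockout libraries. Between the genotype means it was 0.94, or 0.88 when measured from the median region.

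**Figure D2:**
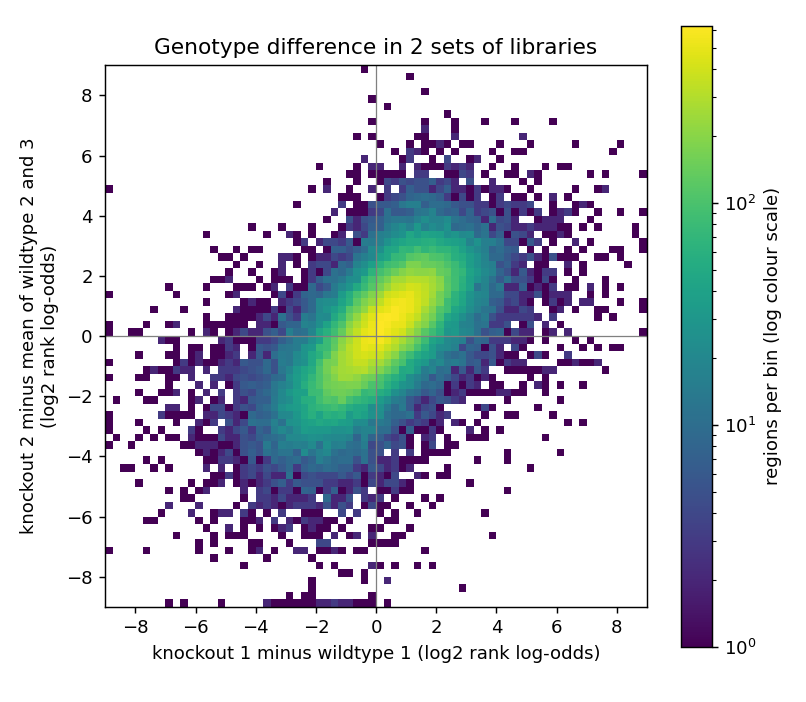
Difference in rank log-odds (log2) between knockout 1 and wildtype 1 (horizontal) against that between knockout 2 and the mean of wildtype 2 and 3 (vertical) for the 71716 shared regions, with regions per bin as colour on a log scale and values beyond 9 drawn at the edge. The cloud is tilted along the diagonal (r of 0.615 across regions), with 74.98% of regions on the same side of both medians.

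Of the 12 gained regions with the smallest p near a gene, 5 lay at gene ends, 5 inside genes and 2 between genes. The region at the end of Glo1 (chr17:30611600-30612863), whose product glyoxalase I detoxifies methylglyoxal, ranked at 2.65%, 6.02% and 4.15% in wildtype and at 0.0098% and 0.0682% in the knockout. It thus stood at the very top of the knockout lists, a difference of 7.35 ± 0.78 (SE, limma adjusted p 0.00064). Ranked by fold enrichment instead, the difference at Glo1 was -0.73 and was not called. At Mmab (chr5:114443684-114444589), which encodes the adenosyltransferase that makes coenzyme B12, the ranks were 1.85%, 2.37% and 2.81% against 0.0227% and 0.0547%, a difference of 6.07 ± 0.64. At Tut1 (chr19:8953254-8954112), which encodes the terminal uridylyltransferase of U6 snRNA, they were 3.30%, 3.59% and 8.16% against 0.0989% and 0.144%, a difference of 5.34 ± 0.53. A region in Pole2 (chr12:69210175-69211364), a subunit of DNA polymerase epsilon, gained 4.14 ± 0.42.

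Other members of this set were weak in wildtype. A region inside Kcnq1 (chr7:143324714-143325667), the potassium channel gene that secretory cells of the lateral wall use to fill the endolymph with potassium, ranked at 30.2%, 38.9% and 52.0% in wildtype. In the knockout it ranked at 1.56% and 2.22%, a gain of 5.14 ± 0.47 (adjusted p 0.00053). Regions inside Tbxas1, thromboxane A synthase, and Adcy2, an adenylate cyclase, stood between 24.0% and 36.7% in all wildtype libraries and between 1.53% and 3.50% in both knockout libraries. The set was completed by regions at the olfactory receptor gene Olfr1331 and at Gm6034, Farp2, Sh2d1b2 and Prrg2. All 12 were also gained after re-ranking. None of them, and none of the 12 lost regions below, held a Sox4 site, which 1081 of all 71716 shared regions did. The median number of coding genes within 500 kb of the 12 gained regions was 22, against 8 for all shared regions.

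The 12 lost regions with the smallest p lay in gene-poor surroundings, with a median of 4 coding genes within 500 kb. The largest fall was 65725 bp from Calb1 (chr4:15814994-15815539), which encodes the calcium buffer calbindin. This region ranked at 11.9%, 4.87% and 4.69% in wildtype and at 92.7% and 82.4% in the knockout, a difference of -6.78 ± 0.65 (SE, limma adjusted p 0.00062). It kept a called peak in both knockout libraries but stood among their weakest. Its −log10 p was 60.7, 73.5 and 50.4 in wildtype and 5.38 and 4.87 in the knockout.

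At the end of Synpr (chr14:13284193-13285277), which encodes the synaptic vesicle protein synaptoporin, the ranks were 0.434%, 0.479% and 0.544% in wildtype and 12.96% and 10.4% in the knockout. This was among the strongest peaks of each wildtype library and moved by -4.76 ± 0.41. Bcl11a, a zinc finger repressor of blood and neural cells, showed a like step at its gene end (chr11:24076937-24078179), from 1.28%, 0.807% and 1.19% to 18.6% and 13.54%. A region inside Grm7 (chr6:111356851-111357754), a metabotropic glutamate receptor gene, fell from 8.52%, 6.10% and 3.90% to 81.8% and 65.5%, or by 5.55 ± 0.55. Regions near Kitl, the ligand of the receptor Kit, and inside Ppargc1a, a coactivator of mitochondrial biogenesis, fell by 5.20 and 4.38. Ccser1, Tmem74, Fut10, Itgb6, Me3 and Mei4 completed the set, with falls between 4.13 and 5.82. Peak significance fell along with rank here: in 9 of the 12 regions the −log10 p was lower in both knockout libraries than in every wildtype library, and in none was it higher in both.

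**Figure D3:**
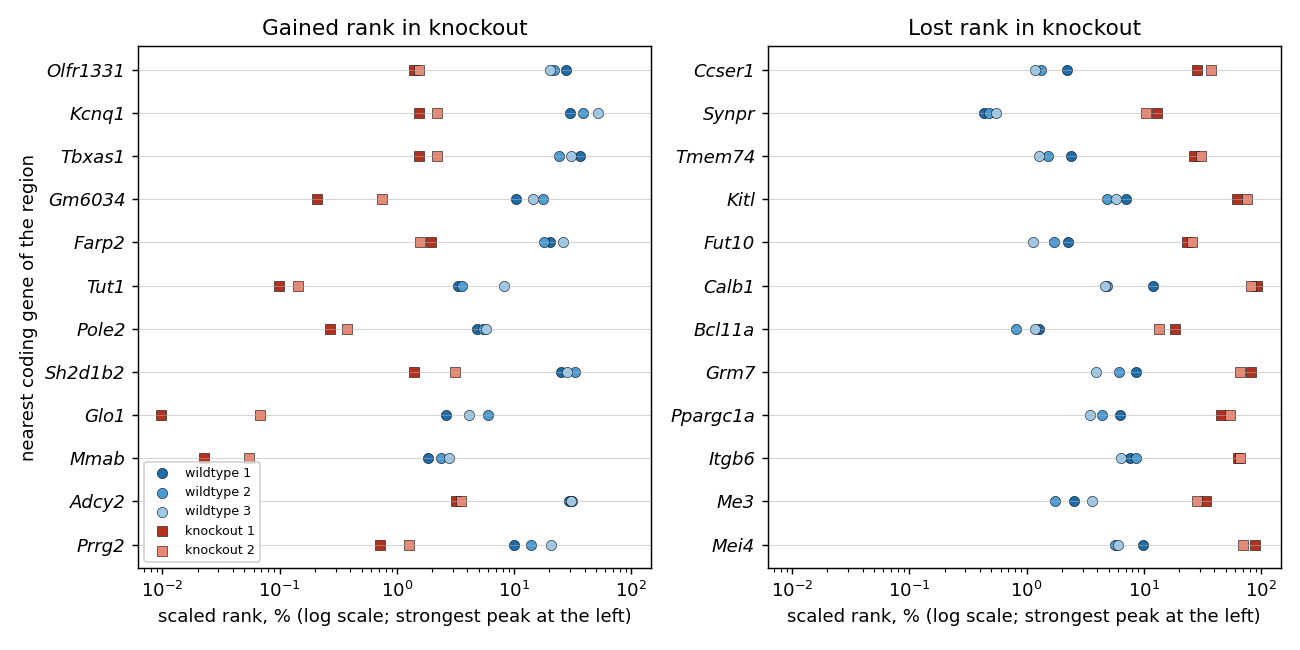
Scaled rank in percent on a log axis (strongest peak at the left) of the 12 gained (left) and 12 lost (right) regions with the smallest p, named by nearest gene, with 1 point per library. Circles are the 3 wildtype and squares the 2 knockout libraries, and the groups do not overlap in any of the 24 regions because the rule required it.

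Gained and lost regions followed the density of genes. Where no coding gene lay within 500 kb, 2.38% of 1259 shared regions gained and 18.3% lost. The gained share rose and the lost share fell at each step of density, to 36.0% gained and 1.04% lost among 2404 regions with over 40 genes within 500 kb. After re-ranking these ends were 1.35% gained with 23.4% lost and 23.3% gained with 1.41% lost. Within each library, the median rank log-odds of regions with at least 15 coding genes within 500 kb exceeded that of regions with at most 4 by 0.84, 0.33 and 0.15 in wildtype 1 to 3, and by 1.58 and 1.49 in knockout 1 and 2. The knockout mean was higher by 1.10, with p of 0.2 in an exact two-sided permutation over libraries, the smallest it can give. The 3 wildtype libraries took the same order on this measure as on median peak significance, and the part of significance in the difference was not tested.

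The pattern was seen at gene ends and away from them, a split made after the overall values were seen. At regions within 1000 bp of a gene end the difference between dense and sparse surroundings was -0.19, -0.71 and -0.84 in wildtype and 1.16 and 0.84 in the knockout. At regions over 10000 bp away it was 0.39, -0.20 and -0.37 in wildtype and 1.04 and 0.93 in the knockout. By chromosome, the median difference ran from 0.01 on chromosome 3 and 0.05 on chromosome 16 to 0.87 on chromosome 19 and 0.90 on chromosome 11. On chromosome 11, 24.7% of 4062 regions gained and 3.25% lost, while on chromosome 3 it was 7.02% and 9.99% of 4784. The median number of genes within 500 kb was 15 and 7 on these chromosomes.

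Gene ends and distal regions differed less clearly. Of 14124 regions within 1000 bp of a gene end 20.6% gained and 6.72% lost, and of 43890 regions over 10000 bp away 9.83% gained and 8.01% lost. The median rank log-odds of gene ends exceeded that of distal regions by 2.16, 1.96 and 1.84 in wildtype and by 2.28 and 2.33 in the knockout, 0.32 more in the knockout (exact two-sided permutation p 0.2, the smallest possible). Ranked by fold enrichment in place of −log10 p, the sign turned, to -0.59 at the same p.

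Among promoters, the base composition went with the direction. Of 20085 promoters of the RefSeq table, 12437 lay in shared regions. Of 3234 of them with a G+C content of 33.3% to 56.0%, 29.7% lay in gained and 5.47% in lost regions, and of 2985 with 68.7% to 88.7%, 9.31% lay in gained and 10.2% in lost regions. The letters CCGGAA stood on one of the strands in 19.1% of all promoters, 27.4% of those in shared regions, 41.1% of the 2793 in gained regions and 17.4% of the 835 in lost regions. CCAAT stood in 38.1%, 37.6%, 43.4% and 36.9%. After re-ranking, CCGGAA was at 44.2% of gained and 18.3% of lost promoters, and CCAAT at 47.8% and 34.7%.

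Of the other motifs searched on both strands in the same 300 bases, the GC box GGGCGG stood in 67.0% of promoters in shared regions, 59.8% of gained and 70.7% of lost ones (47.0% of all promoters). ACAAAG, a core of Sox sites, stood in 12.8%, 12.7% and 12.6% (16.6% of all), and ACAATG in 6.67%, 6.02% and 6.47% (10.4% of all). The E-box CANNTG was found in 62.4%, 60.2% and 61.6% (68.7% of all) and the TEAD core GGAATG in 11.3%, 11.2% and 9.58% (13.4% of all). None of these motifs holds another of them within its letters. A match is a description of the letters in this window and shows no binding.

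Sox4 binding had been mapped by CUT&RUN in sorted p27kip1 positive wildtype progenitors, in 3 replicates, and a site needed a peak among the 20000 strongest of at least 2 of them. Sites fell in 1081 shared regions, and 19.98% of these gained and 12.8% lost, against 13.3% and 6.96% of the 70635 regions without a site. Both directions were thus called more often than without a site. The shares lay near those of all shared regions with a mean scaled rank up to 5%, of which 20.1% gained and 11.3% lost. The median of Sox4 regions differed little between genotypes. Their median rank log-odds exceeded that of other shared regions by 3.36, 3.23 and 3.16 in wildtype and by 3.17 and 3.48 in the knockout, a difference of 0.08 (exact two-sided permutation p 0.6). Without knockout 2 this difference was -0.07.

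Gains prevailed among Sox4 regions at gene ends and losses among those far from gene ends. Of 614 at gene ends, 26.9% gained and 6.19% lost, against 20.6% and 6.72% of all regions at gene ends. Of 355 over 10000 bp from a gene end, 7.32% gained and 25.4% lost, against 9.83% and 8.01% of all regions at that distance. For these distal regions the excess over other distal regions was 2.96, 2.96 and 2.67 in wildtype and 2.05 and 2.21 in the knockout, lower by 0.73 in the knockout (p 0.2, the smallest possible in an exact two-sided permutation over libraries). The split by distance was made after the overall values were seen, and the difference between the 2 places was not tested.

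Strong regions were called more often in both directions, and Sox4 regions were strong. Of regions with a mean scaled rank up to 5%, 20.1% gained and 11.3% lost, against 2.00% and 2.67% of those over 50%. For this reason, distal regions were also divided by their mean scaled rank over the 5 libraries. Up to 5%, 16.9% of 142 regions with a Sox4 site and 15.8% of 1503 without one were lost. From 5% to 10% the shares were 27.5% of 91 and 12.7% of 3102. From 10% to 20% they were 40.3% of 72 and 10.5% of 8622, and over 20% they were 24.0% of 50 and 6.23% of 30308. The lost share was thus about the same in the strongest class and higher with a Sox4 site in the other 3. The mean includes the knockout ranks that also define a loss, so a fall itself moves a region to a weaker class. The split therefore cannot separate strength from loss, and the part of strength was not tested.

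The distal Sox4 regions given here are examples picked after their values were seen. Regions at Tafa2, Foxn3, Tbc1d32 and Diaph3, not described here, had a smaller limma p than the one at Lgr5. The region inside Lgr5 (chr10:115492937-115494254), a receptor for R-spondins that marks prosensory and supporting cells, ranked at 1.05%, 0.881% and 0.585% in wildtype and at 8.10% and 8.59% in the knockout, a difference of -3.47 ± 0.42 (SE, limma adjusted p 0.0010). Its −log10 p was 262, 168 and 137 in wildtype and 336 and 189 in the knockout, so it fell in rank while its significance stayed within or above the wildtype range. A region inside Eya4 (chr10:23261774-23262601), an otic transcriptional coactivator and deafness gene, went from 2.64%, 3.21% and 3.97% to 29.9% and 21.5%. The one with the smallest p, inside the catenin gene Ctnna2 (chr6:77742753-77743459), went from 4.45%, 3.28% and 3.11% to 32.6% and 26.3%. Among the gains, a region 51718 bp from Rab4a went from 8.45%, 10.96% and 8.83% to 1.27% and 1.38%.

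**Figure D4:**
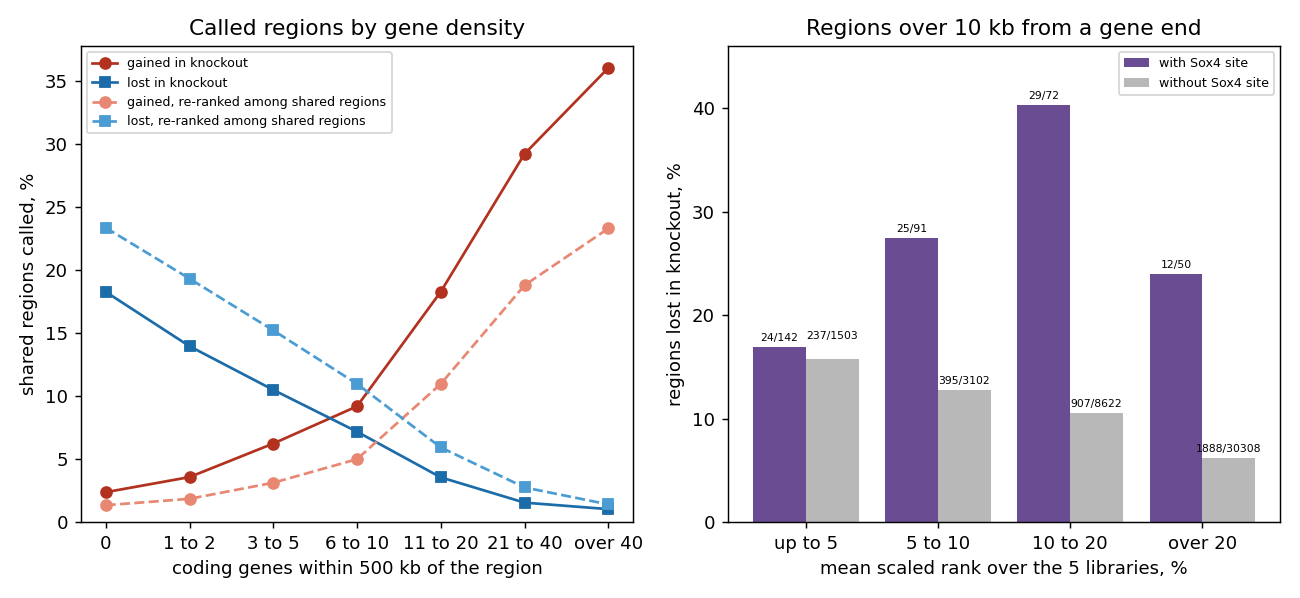
Left, percent of shared regions gained or lost in the knockout by the number of coding genes within 500 kb, with full lists (solid) and ranks among shared regions (dashed). Right, percent of regions over 10000 bp from a gene end that were lost, with and without a Sox4 site, by mean scaled rank, with lost and total regions above each bar. The gained share climbs from 2.38% to 36.0% with gene density, and the lost share with a Sox4 site reaches 40.3% in the class from 10% to 20%. The mean scaled rank includes the knockout ranks that also define a loss.

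The regions of 18 gene lists, each region assigned to its nearest coding gene within 100 kb, were counted against the background of 13.4% gained and 7.05% lost. Genes shared between lists, such as Isl1, Hey2, Lgr5, Pax2 and Fgf10, count in each. With ranks among the shared regions the background was 7.99% gained and 10.4% lost. Both backgrounds run over all gene densities, and the part of gene density in the counts of lists and genes was not tested. The prosensory list had 26 gained and 24 lost of 247 regions (10.5% and 9.72%), and 17 and 35 after re-ranking, with a median difference of 0.22 against 0.38 over all shared regions. Hair cell genes had 7 gained and 14 lost of 119 (4 and 23 re-ranked), and supporting cell genes 14 and 16 of 158 (10 and 18 re-ranked). Of the 14 hair cell losses, Pcdh15 supplied 5 and Pou4f3 3. The medial floor list had 10 gained and 18 lost of 126 regions (2 and 24 re-ranked). Lmo3 supplied 6 and Fgf10 5 of these losses, and Otoa 4 of the gains. The median difference of the medial floor list was -0.21. Here the per-library median, relative to all shared regions, was -0.29, -0.07 and 0.02 in wildtype and -0.69 and -0.82 in the knockout. Both knockout values thus lay below all wildtype values, as they did in 6 of the 18 lists. The others were the SoxC, hair cell, spiral ganglion neuron, mesenchyme, and blood, endothelium and macrophage lists. For mesenchyme genes the values were -0.46, -0.33 and -0.48 in wildtype and -0.63 and -0.80 in the knockout. Both knockout values lay above all wildtype values in the housekeeping and epithelium lists. With so few libraries, an exact one-sided permutation over the 10 splits could give no p below 0.1 for a list. These separations were not tested, and lists that share genes are not independent.

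Pathway lists had gained shares near or below the background. The Wnt list had 25 gained and 7 lost of 216 regions, the BMP and TGF-beta list 15 and 7 of 230, the Notch list 10 and 7 of 116, and the Fgf list 11 and 10 of 118. Hippo and TEAD genes had 14 gained and 4 lost of 101, and cell cycle genes 10 and 4 of 82. The roof and lateral wall list had 13 gained and 4 lost of 137. After re-ranking, losses outnumbered gains in 4 of these lists, with 11 gained and 13 lost for BMP and TGF-beta, 9 and 16 for Notch, 8 and 14 for Fgf and 5 and 9 for Hippo and TEAD. The re-ranked counts were 15 and 11 for Wnt, 8 and 6 for cell cycle and 6 and 6 for roof and lateral wall. In the housekeeping list 8 of 40 regions gained and 1 was lost, and in the epithelium list 17 of 85 gained and 2 were lost, and 9 of these gains belong to Pax2 (5 and 4 for housekeeping and 13 and 3 for epithelium after re-ranking). Among markers of other cells, spiral ganglion neuron genes had 10 gained and 14 lost of 125, mesenchyme genes 4 and 3 of 79, glia and melanocyte genes 3 and 4 of 52, and blood, endothelium and macrophage genes 6 and 6 of 63. In this order the re-ranked counts were 5 and 18, 3 and 4, 2 and 5, and 1 and 8. Isl1 supplied 5 and Gap43 4 of the 14 losses with full lists in the spiral ganglion neuron list. The part of other cell types in these counts was not tested.

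**Figure D5:**
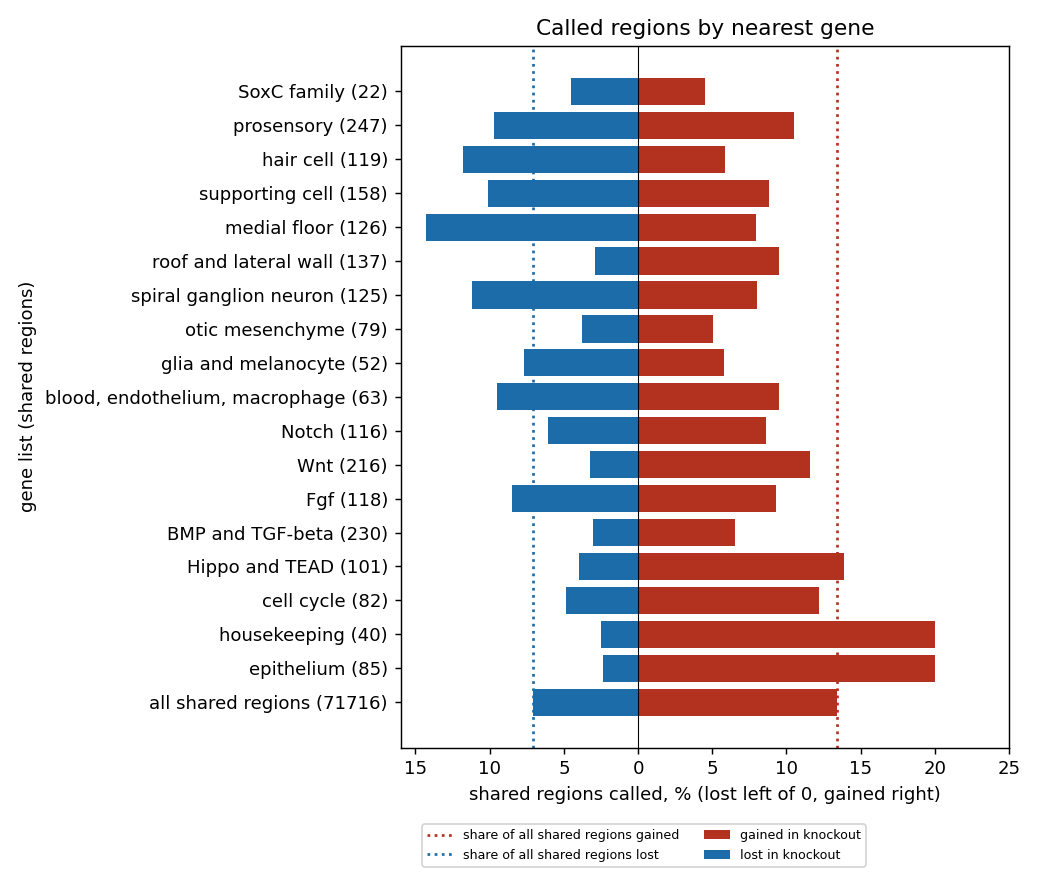
Percent of the shared regions of each gene list that gained rank in the knockout (right of 0) or lost it (left of 0), with the number of regions in parentheses and dotted lines at 13.4% gained and 7.05% lost of all 71716 shared regions. Medial floor, hair cell and spiral ganglion neuron genes show more losses than gains, and housekeeping and epithelium genes show gains of 20.0% each. Single genes supply many of these calls, such as Lmo3 (6 losses) and Fgf10 (5) in the medial floor list and Pax2 (9 gains) in the epithelium list. Losses and gains are nearly equal in the supporting cell list (16 and 14) and the glia and melanocyte list (4 and 3).

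Some genes of the lists had several called regions. Isl1 had 10 shared regions within 100 kb, of which 5 were lost and none gained. Besides its promoter, a region 3894 bp away (chr13:116293563-116294376) went from 3.04%, 2.81% and 2.31% in wildtype to 19.1% and 20.8% in the knockout, a difference of -3.17 ± 0.37, and one 96219 bp away (chr13:116201224-116202051) from 1.04%, 0.728% and 0.793% to 5.62% and 5.52%. A lost region with a Sox4 site lay farther out, 286185 bp from Isl1 (chr13:116011431-116012085), and went from 2.57%, 2.23% and 1.09% to 11.3% and 15.2%, a difference of -3.004 ± 0.45. Fgf10, a ligand of the medial floor, had 5 of its 7 regions lost and none gained. The one with the smallest p (chr13:118643137-118643635) fell from 26.8%, 17.4% and 15.7% to 66.7% and 79.2%, or by 3.51 ± 0.65. Lmo3, a LIM-only cofactor, had 6 of 13 regions lost and none gained, and Hey2, a Notch effector of supporting cells, 4 of 8, also with none gained. Of the regions nearest to Pcdh15, a tip link cadherin of hair cells, 5 of 30 were lost and none gained. After re-ranking this count was 10. The median number of coding genes within 500 kb was 1 for the regions of Isl1 and Pcdh15, 2 for Fgf10, 4 for Lmo3 and 6 for Hey2. Of all shared regions with 1 to 2 such genes, 14.0% lost and 3.58% gained (19.3% lost after re-ranking).

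Pax2, a paired-box factor of the otic epithelium, showed the opposite, with 9 of 16 regions gained and none lost. Its region with the smallest p (chr19:44692278-44693029) rose from 30.6%, 39.7% and 26.3% in wildtype to 0.798% and 4.19% in the knockout, by 4.65 ± 0.60 (SE, limma adjusted p 0.0012). After re-ranking, 5 regions of Pax2 were called gained. Otoa, which encodes otoancorin of the tectorial membrane attachment, had 4 of 7 regions gained, and Lmx1b, a homeodomain factor of the roof, 4 of 8, but with ranks among the shared regions these counts were 0 and 1. Notch1 had 3 of 11 gained and none lost in both scalings. Coding genes within 500 kb numbered 18.5 at the median for the regions of Pax2, 14 for Otoa, 7 for Lmx1b and 32 for Notch1. Of all shared regions with 21 to 40 such genes, 29.2% gained and 1.56% lost (18.8% gained after re-ranking). With 11 to 20 such genes 18.3% gained, and with 6 to 10 it was 9.19%. Counts at these genes are to be read against these shares.

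Other listed genes had calls in both directions or a single lost region. Gap43, a growth cone protein of neurons, had 4 lost regions and 1 gained (chr16:42265074-42265753), which rose from 44.5%, 41.6% and 50.4% to 15.3% and 9.14%. Slc1a3, a glial-type glutamate transporter of supporting cells, had 3 gained and 1 lost of 22. A region inside the prestin gene Slc26a5 (chr5:21826037-21826870), the motor protein of outer hair cells, fell from 22.6%, 14.9% and 18.0% to 80.9% and 86.9%, or by 4.56 ± 0.68. At Cdkn1b, which encodes the cell cycle inhibitor p27kip1, a region between genes (chr6:134948429-134948902) fell from 15.1%, 16.9% and 16.4% to 49.1% and 52.6%. The Hippo kinase gene Stk3 lost rank at its gene end (chr15:35155192-35156099), from 0.176%, 0.158% and 0.209% to 2.34% and 1.17%, while Nf2, another gene of that list, had gained at its promoter.

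Across 11 fixed genes of SoxC and sensory development, 8 of 122 regions within 100 kb gained and 12 lost, of which Isl1 supplied 5 losses (4 gained and 16 lost after re-ranking). Over all shared regions 13.4% gained and 7.05% lost (7.99% and 10.4% re-ranked), and counts of 1 to 3 at single genes below are to be read against these shares. Sox4 itself had 13 regions, with differences from -2.01 to 1.55, and none was called. Sox11 had 1 gained and 1 lost of 8, and the lost one (chr12:27359515-27360176), 16797 bp from the gene, went from 8.99%, 7.15% and 7.91% to 37.4% and 45.5%. Sox12 had 3 gained of 16, at regions mostly nearer to other genes. Peaks stood over the gene bodies of Sox4 and Sox11 in both knockout libraries, the best at 3.14% and 1.91% for Sox4 and at 2.13% and 1.82% for Sox11. Because the labels do not give the deleted interval, these peaks do not check the genotype.

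Among the sensory genes, Sox2, the factor that specifies the prosensory domain, had 2 gained and 1 lost of 15 regions. Pou4f3, a hair cell survival factor, had 2 gained and 3 lost of 9 (0 and 3 after re-ranking). Of the 5 regions to which Pou4f3 was the nearest gene, 0 gained and 3 were lost. Jag1, a Notch ligand of the prosensory domain, had 1 lost of 17, and Lgr5 had the intronic loss given above among 20. Atoh1 (6 regions), Gfi1 (3) and Prox1 (5), factors of hair cells and, for Prox1, of supporting cells, had no called region. Their differences ran from -0.61 to 2.84.

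Genes with several regions were described by their median difference. At shares of 13.4% gained and 7.05% lost, few genes would be called at every region. Of 4211 genes with at least 5 shared regions, 1 had all of them gained and none had all lost. Calls in both directions were found at 597 genes, gains alone at 1625, losses alone at 1049 and no call at 940. The highest medians belonged to Ccdc57 (2.60 over 5 regions), Fkbp5 (2.58 over 5), Jazf1 (2.58 over 11) and Macf1 (2.55 over 15), followed by Ilrun, Nmur2, Btrc and Txn2. Fkbp5 encodes an immunophilin that glucocorticoids induce, and 4 of its 5 regions gained. Macf1, a linker of actin and microtubules, had 7 of 15 gained and none lost.

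The lowest medians belonged to Grm7 (-2.97 over 7 regions), Sgo2b (-2.45 over 5), Cdh18 (-2.40 over 7) and Drosha (-2.33 over 5), followed by Med30, Wls, Wdr1 and Fshr. At Grm7 4 of 7 regions were lost and at the cadherin gene Cdh18 3 of 7, with none gained at either. Wls, which carries Wnt proteins to the cell surface, had 2 of 6 lost, and the actin factor Wdr1 3 of 6. Around the 8 lowest genes the median number of coding genes within 500 kb ran from 1 to 11, and around the 8 highest from 2 to 51.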

How the data were processed

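Peaks of 5 ATAC-seq and 3 Sox4 CUT&RUN libraries were used as deposited. Per the submitters' processing notes, they were made with STAR, MACS2 and deepTools (and UMI-tools for Sox4), with no versions given, on mm10 (GRCm38). The notes of wildtype replicate 2 name only MACS2 and deepTools, and the names of the knockout lists state a p threshold and a limit to list length, unlike the wildtype names. Significance was deposited by the authors as −log10 p and −log10 q, and enrichment as a ratio to local background (fold). The lowest −log10 p was 2.00 in every ATAC list but that of knockout 1 (3.98). Wildtype lists held no peak on X or Y, so autosomes were used. Read depth is not recorded in peak lists, so its precision is unknown.

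Overlapping rows were merged within a library (1 bp overlap), keeping the strongest −log10 p, and ranked. Merged peaks across libraries were joined into regions. A scaled rank was (rank − 0.5) divided by the library's merged autosomal peaks (145099 to 208902). Rank log-odds, log2((1 − s)/s) of the scaled rank s, were fitted with limma 3.58.1 in R 4.3.3 (variance trended on the mean, prior 9.83 degrees of freedom), tested on simulated data beforehand. Contrasts of library medians used exact permutations over libraries. Genes were the 20665 coding genes on autosomes in RefSeq (GRCm38.p6, without strand), so distances are to either gene end. Promoters came from RefSeq too. Of 271 listed genes 266 were placed. A Sox4 site was a merged 501 bp summit window found in at least 2 replicates. A second list of Sox4 replicate 1 and the single-cell tables were not analysed here.

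Genes were named by a rule: the 12 gaining and 12 losing regions with the smallest p among those whose groups do not overlap and with a gene within 100 kb, the 8 highest and 8 lowest gene medians over at least 5 regions, 11 fixed genes, and the region with the smallest p in each direction in each list. Other genes with several calls and the distal Sox4 regions were named after their values were seen. The regions, lists and tests were chosen with earlier results of these data known. Alternatives were other scalings, equal list lengths, fold enrichment ranks, a percent scale, summit windows, single-peak regions, a strength filter, robust variance, a replicate block and leaving out each library. The covariate fit, and leaving out libraries for positions and lists, were added after seeing the data.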

Additional observations from a re-analysis of the deposited data

How the results depend on the processing

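Both the number of calls and the balance of gains and losses moved with the processing, with gains making up 65.6% of calls with full lists, 43.3% among shared regions, 40.4% with lists of equal length, 46.1% on the percent scale and 38.6% without knockout 1. Gained and lost regions were 9641 and 5054 with full lists, 5732 and 7492 among shared regions, 5588 and 8231 with lists of equal length (16642 gained without overlap between groups), and 3235 and 3778 on the percent scale. With peak significance as a covariate, limma called 0 and 0. With the replicate number as a block, 14955 gained and 6123 lost, though the shared numbers stand only in titles and same-numbered libraries deviated together weakly (r of 0.059 and 0.028 across regions for the 2 pairs, which share the deviations of 1 knockout pair). Leaving out 1 library gave 1009 to 11757 gained and 1608 to 5217 lost. The fewest followed the loss of knockout 1 (1009 and 1608), then knockout 2 (3504 and 2203) and wildtype 2 (5779 and 3434). With 1 knockout library left, its spread is assumed to be that of wildtype.

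Of 71 single regions named with their calls, 67 kept the call among shared regions, 53 by fold enrichment, 47 without knockout 1 and 0 with the covariate. With equal list lengths 60 kept it and 4 lost it, and the other 7 were not shared by the shortened lists. Signs turned for Glo1 (-0.73) and Nf2 (-0.66) when ranked by fold enrichment, and for the region at Sox12 on chromosome 2 with the covariate (-0.0198). The gene end contrast turned to -0.59 by fold enrichment and the Sox4 contrast to -0.0744 without knockout 2 (range over libraries left out -0.0744 to 0.23). The causes were not tested.

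For gene lists, the value is the knockout minus wildtype difference of the list's median relative to all regions, with no test. With genes within 10 kb it was -0.40 for prosensory (-0.04 in full), -0.0360 for supporting cell (0.0436), 0.0397 for Notch (-0.11), -0.17 for Fgf (-0.09), -0.23 for BMP and TGF-beta (-0.09), 0.10 for housekeeping (0.34) and 0.19 for epithelium (0.43). After re-ranking it was -0.47 for hair cell (-0.38), -0.81 for medial floor (-0.64) and 0.15 for Wnt (0.09). For spiral ganglion neuron genes it ran from -0.25 to -0.0711 with 1 library left out. The gene density contrast stayed positive with full lists, after re-ranking, with genes counted within 100 kb and with each library left out (0.87 to 1.33). It was not run with ranks by fold enrichment, the setting that turned the gene end contrast.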
